A study of Mus musculus with 2 samples.

Results

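Neural basic helix-loop-helix (bHLH) factor genes were examined as loci of a lineage unrelated to heart muscle, to see which of their promoters are accessible in the embryonic heart. The 9 members are *Neurog1*, *Neurog2*, *Neurog3*, *Neurod1*, *Neurod2*, *Neurod4*, *Neurod6*, *Olig1* and *Olig2*, taken by name from the 21755 protein-coding genes on autosomes and X in GENCODE M21 (GRCm38/mm10). The rule that picks them uses their names and no measured value. Open chromatin was profiled by ATAC-seq, in which a transposase inserts adapters into accessible DNA, in whole hearts of wildtype (WT) FVB embryos at E11.5. There were 2 replicates, each from a pair of hearts, and no other genotype, stage or tissue, so no contrast between groups exists and no test was run. At each locus, peaks of both replicates were read within 1 kb of the gene start and in the gene body with 50 kb on each side.

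bHLH factors bind DNA as dimers at E-boxes, short motifs spelled CANNTG. In the developing nervous system, neurogenins (*Neurog* genes) commit progenitors to a neuronal fate, and *Neurod* genes act after them in differentiating neurons. *Neurog3* and *Neurod1* are also required for endocrine cells of the pancreas and gut. *Olig2* specifies motor neurons and oligodendrocytes, and *Olig1* acts in oligodendrocyte maturation. None of these genes is known as a regulator of heart muscle.

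A peak in these lists is a stretch where read pileup exceeded a genome-wide background. Fold enrichment, the value the authors' peak caller gave at each summit, is that pileup over the background with 1 added to both. Steps in the values put the background at 2.68 reads in replicate 1 and 2.98 in replicate 2, which turns each fold enrichment into a whole number of reads at the summit. The weakest listed summits had 9 reads in each replicate, at 2.72-fold over background in replicate 1 and 2.51-fold in replicate 2. A start without a peak is therefore one whose signal stayed below the limit for a call, which says nothing of weaker signal or of opening in a few cells. A region was called shared where peaks of both replicates overlapped. Since whole hearts were used, fewer cells with an open site and less opening per cell cannot be told apart.

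Of the 9 members, *Neurog2*, *Neurod4*, *Olig1* and *Olig2* had a shared region within 1 kb of the start, while *Neurog1*, *Neurog3*, *Neurod1*, *Neurod2* and *Neurod6* had none. That is 44.4% of the members, beside 64.0% of all protein-coding starts. Taken alone, replicate 1 had a peak at 5 member starts (65.3% of all starts) and replicate 2 at 4 (65.2%). At the summits of the shared start regions, the signal was highest at *Neurod4* (15.6 ± 0.67 fold enrichment, SD, n = 2). It was followed by *Olig1* (11.7 ± 2.67), *Neurog2* (11.53 ± 1.37, with summits outside the 1 kb window) and *Olig2* (8.63 ± 0.47). *Neurod4* was the highest and *Olig2* the lowest in both replicates, whereas *Olig1* and *Neurog2* changed places between them and do not differ beyond their spread. All 4 lay below the median of accessible starts, and 3 of them, all but *Neurod4*, lay below the lower quartile. Among the 13928 protein-coding starts with a shared region, median fold enrichment was 24.3 (quartiles 14.02 and 33.5), and the members exceeded between 13% (*Olig2*) and 28.5% (*Neurod4*) of them.

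**Figure D1:**
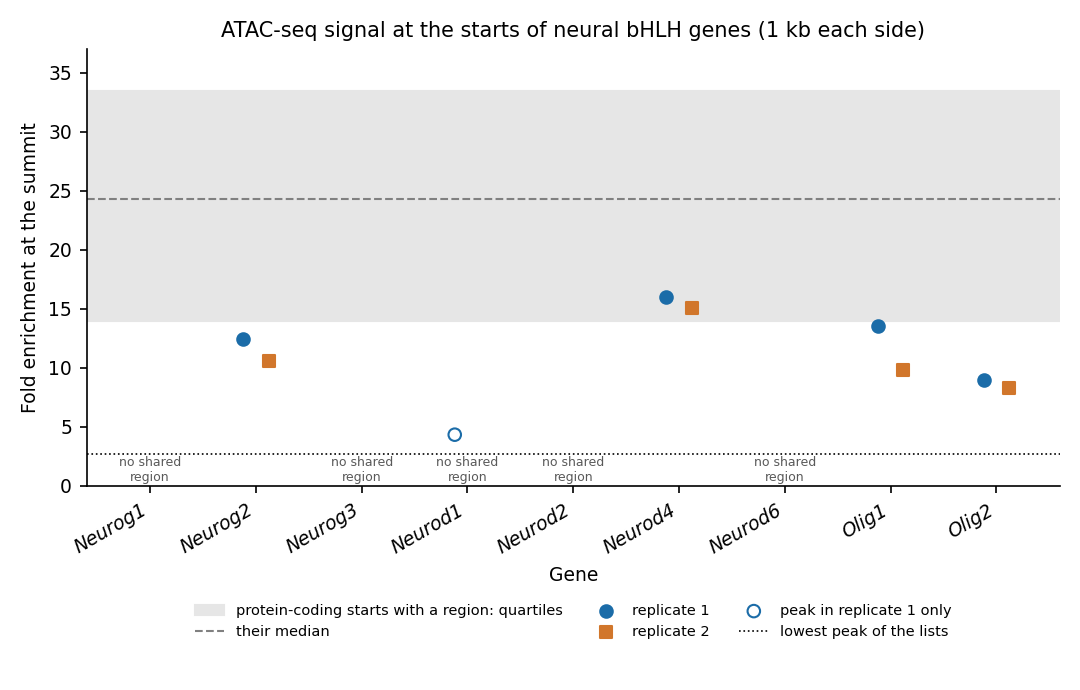
Fold enrichment at the summit (y axis, linear) of the peaks that reach within 1 kb of each gene start (x axis), with circles for replicate 1 and squares for replicate 2. The *Neurog2* summits themselves lie outside that window, 1203 and 1198 bp past the start. The grey band and dashed line give the quartiles (14.02 and 33.5) and median (24.3) of mean fold enrichment over protein-coding starts with a shared region. 3 of the 4 accessible members lie below the band in both replicates, *Neurod4* lies just inside it, and the open circle at *Neurod1* is a peak of replicate 1 alone.

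Among the neurogenins, which act at the top of the neuronal cascade, *Neurog2* was the only member with a region at the start. Its shared region (chr3:127632336-127635025, 2690 bp) began 799 bp before the start and ended 1890 bp past it. It covered 75.7% of the gene body (2497 bp), a share reached by 0.887% of protein-coding genes. Those genes have a median length of 17414 bp and were not matched for length. The region was longer than 94.6% of the leading regions at accessible starts. Fold enrichment was 12.5 in replicate 1 (45 reads at the summit, −log10 q of 36.7) and 10.6 in replicate 2 (41 reads, 30.1). The summit did not lie at the start. It fell in the single coding exon, 1203 bp past the start in replicate 1 and 1198 bp past it in replicate 2, at coding bases 610 and 605 of 789. When only regions with both summits inside the 1 kb window were counted, *Neurog2* dropped out and 3 members remained.

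*Neurog2* bases are printed here because they carry this offset. The first run is the 200 bases before the annotated start (chr3:127632935-127633134, plus strand), which hold 6 CpG and no E-box. The second is 201 bases of coding sequence centred on the replicate 1 summit (chr3:127634238-127634438, plus strand), which hold 19 CpG. Capitals mark E-boxes in this and every later sequence, each read 5′ to 3′ on the strand of its gene from the GRCm38 reference.
Neurog2 before the start: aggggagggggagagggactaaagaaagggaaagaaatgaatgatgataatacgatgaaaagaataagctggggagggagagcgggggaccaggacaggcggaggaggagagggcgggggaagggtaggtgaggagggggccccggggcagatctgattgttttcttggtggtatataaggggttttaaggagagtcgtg
Neurog2 coding summit: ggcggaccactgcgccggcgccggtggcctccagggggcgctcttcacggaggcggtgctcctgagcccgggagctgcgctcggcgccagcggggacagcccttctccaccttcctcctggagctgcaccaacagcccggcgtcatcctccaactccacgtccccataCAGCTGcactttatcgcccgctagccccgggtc

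*Neurog1*, which specifies early sensory neurons of cranial and spinal ganglia, had no peak of either replicate within 1 kb of its start at chr13:56252163. The nearest shared region was 30.3 kb away. *Neurog3*, the endocrine progenitor factor (start at chr10:62133090), also had no peak in either replicate, with the nearest shared region 21.9 kb away. Over all 7827 protein-coding starts without a shared region, that distance had a median of 23493 bp. Both windows are readable sequence, since 100% of their 32-mers occur once in the genome. The 200 bases before each start are given for contrast with *Neurog2*.
Neurog1 before the start (chr13:56252164-56252363, minus strand): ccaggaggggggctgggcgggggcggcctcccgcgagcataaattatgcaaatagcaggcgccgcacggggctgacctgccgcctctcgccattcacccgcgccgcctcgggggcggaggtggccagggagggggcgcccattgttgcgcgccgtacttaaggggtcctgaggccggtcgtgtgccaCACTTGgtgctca
Neurog3 before the start (chr10:62132890-62133089, plus strand): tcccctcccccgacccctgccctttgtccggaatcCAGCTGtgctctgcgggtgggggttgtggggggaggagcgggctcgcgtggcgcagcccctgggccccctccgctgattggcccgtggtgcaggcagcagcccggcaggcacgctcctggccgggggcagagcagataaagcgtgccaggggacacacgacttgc

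In the *Neurod* group, whose members drive neuronal differentiation, *Neurod4* had a compact region over the start (chr10:130280013-130280512, 500 bp). Fold enrichment was 16.0 in replicate 1 (58 reads, −log10 q of 53.3) and 15.1 in replicate 2 (59 reads, 52.1). The summits of both replicates fell on the same base, 59 bp before the start. This was the narrowest and highest of the 4 start regions, and only 9.41% of the leading regions at accessible starts were shorter. The start is poor in CpG, as the run before it shows, with 4 CpG in 200 bases.
Neurod4 before the start (chr10:130280241-130280440, minus strand): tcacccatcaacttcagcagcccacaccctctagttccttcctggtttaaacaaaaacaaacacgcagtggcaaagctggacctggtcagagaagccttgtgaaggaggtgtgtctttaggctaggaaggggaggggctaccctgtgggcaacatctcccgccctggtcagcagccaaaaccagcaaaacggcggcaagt

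*Neurod1*, a factor of neuronal and beta cell differentiation, had its shared region inside the gene instead (chr2:79453920-79454597, 678 bp). It began 2.2 kb past the start, enriched 11.1-fold in replicate 1 (40 reads) and 10.8-fold in replicate 2 (42 reads). The mean, 10.97, was close to the 11.53 of the *Neurog2* region, and *Neurod1* was the lower of them in replicate 1 and the higher in replicate 2. Both summits, 11 bp apart, fell in the single coding exon at coding bases 787 and 798 of 1071. At the start itself, replicate 1 alone had a peak (chr2:79456702-79456940) with 15 reads, a fold enrichment of 4.35 and a summit 88 bp before the start, and replicate 2 had no peak. That peak also lies at the start of *Cerkl*, annotated 34 bp further upstream on the same strand, so it could not be assigned to either gene. A non-coding gene on the opposite strand, *Gm26755*, has an exon under the coding region. The bases at the coding summit and before the start are printed side by side.
Neurod1 coding summit (chr2:79454151-79454351, minus strand): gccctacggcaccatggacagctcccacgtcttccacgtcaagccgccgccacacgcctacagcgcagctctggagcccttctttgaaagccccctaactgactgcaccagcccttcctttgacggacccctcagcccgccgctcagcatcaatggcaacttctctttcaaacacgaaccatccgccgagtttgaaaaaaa
Neurod1 before the start (chr2:79456752-79456951, minus strand): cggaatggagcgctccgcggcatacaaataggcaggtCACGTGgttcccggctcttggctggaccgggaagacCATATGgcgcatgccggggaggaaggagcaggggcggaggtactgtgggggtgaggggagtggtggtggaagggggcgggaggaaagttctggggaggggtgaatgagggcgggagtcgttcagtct

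Summits in coding sequence were uncommon in general. Of 98850 shared regions on autosomes and X, 2.31% had both summits in coding sequence, and the share was 6.86% among the leading regions of accessible starts. In the neighbourhoods of the members, 3 of 34 regions did, those of *Neurog2* and *Neurod1* and the start region of the neighbour *Cxcl14*. A shared region in the gene body that did not touch the 1 kb window of the start was present in 48.2% of all protein-coding genes. Among the members it was present in *Neurod1* alone, since the long region of *Neurog2* touches its window. Gene length was not matched here, with a median of 3221 bp over the members and 17414 bp over all protein-coding genes.

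*Neurod2* (start at chr11:98329648) and *Neurod6* (start at chr6:55681263), which both act in pyramidal neurons of the cortex, had no peak of either replicate within 1 kb of the start or in the gene body. The nearest shared region was 12.9 kb from the start of *Neurod2*. For *Neurod6* it was 3.9 kb, since a region of 791 bp (chr6:55676537-55677327) lay 495 bp past the end of the gene, enriched 7.06-fold in replicate 1 (25 reads) and 8.80-fold in replicate 2 (34 reads). In these windows 99.0% (*Neurod2*) and 98.2% (*Neurod6*) of 32-mers occur once in the genome, and the share was 96.5% or more at every member start.

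**Figure D2:**
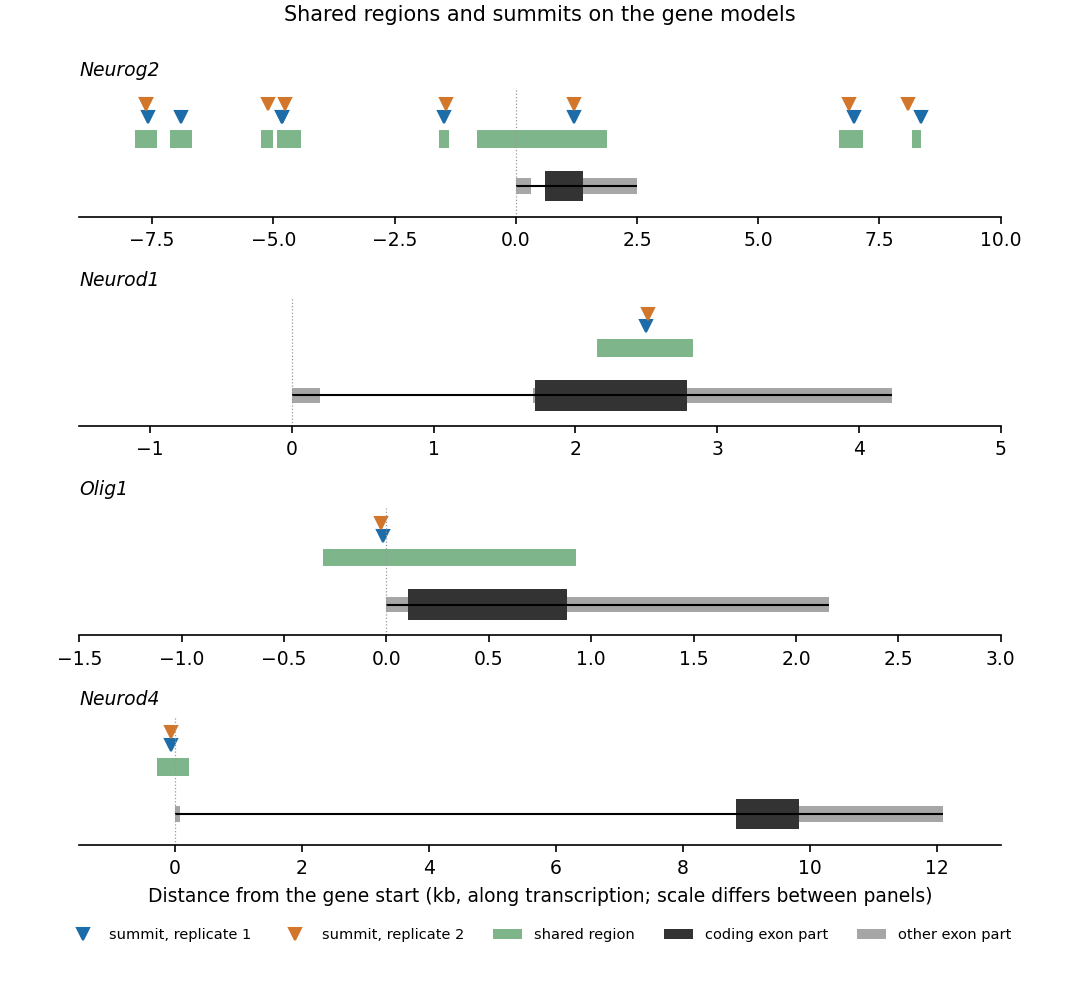
Shared regions (green) and summits (triangles, replicate 1 below and replicate 2 above) drawn on the exons of 4 members, with distance from the gene start along transcription on the x axis in kb. The summits of *Neurog2* and *Neurod1* sit over the coding exon, 1203 and 2500 bp past the start in replicate 1, and those of *Olig1* and *Neurod4* sit just before the start.

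Both *Olig* genes, which lie 44.3 kb apart on chromosome 16 and are transcribed in the same direction, had a region over the start. At *Olig1* (chr16:91269463-91270696, 1234 bp) fold enrichment was 13.6 in replicate 1 (49 reads) and 9.80 in replicate 2 (38 reads), with summits 19 and 27 bp before the start. The region covered 42.8% of this single-exon gene. At *Olig2* (chr16:91224956-91225550, 595 bp) it was 8.96 and 8.30, with 32 reads at the summit in each replicate. The *Olig2* summits lay 110 and 29 bp before the start, 81 bp apart, the widest gap among the 4 start regions. *Olig1* was higher than *Olig2* in both replicates, and the difference was smaller in replicate 2. Both stretches before the start are rich in CpG, with 17 CpG at *Olig1* and 16 at *Olig2* in 200 bases, and neither holds an E-box.
Olig1 before the start (chr16:91269572-91269771, plus strand): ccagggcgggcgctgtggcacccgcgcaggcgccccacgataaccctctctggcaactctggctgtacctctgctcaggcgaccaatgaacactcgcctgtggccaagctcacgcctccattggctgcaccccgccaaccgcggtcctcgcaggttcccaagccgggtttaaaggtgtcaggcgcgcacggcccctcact
Olig2 before the start (chr16:91225257-91225456, plus strand): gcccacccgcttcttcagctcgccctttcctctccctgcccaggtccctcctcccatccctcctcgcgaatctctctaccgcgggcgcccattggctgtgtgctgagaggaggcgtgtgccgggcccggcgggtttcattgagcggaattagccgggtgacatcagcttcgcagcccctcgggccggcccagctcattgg

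By annotation, all 9 members have a single coding exon, 2 have a single exon in all (*Neurog1* and *Olig1*), and gene length ran from 1674 bp (*Neurog3*) to 12089 bp (*Neurod4*), with a median of 3221 bp against 17414 bp over all protein-coding genes. Base composition at the start divided them. Starts were called CpG-rich where GC was at least 50% and the ratio of observed to expected CpG at least 0.6 in 500 bp on each side. By this measure *Neurog1*, *Neurog2*, *Neurod1*, *Olig1* and *Olig2* were CpG-rich.

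CpG-rich starts were accessible as a rule in these hearts: 95.0% of 9737 had a shared region, compared with 38.9% of the 12018 others. Among the members, 3 of 5 CpG-rich starts and 1 of 4 others had a region. *Neurog1* stood out by composition, with 68.8% GC (higher than 94.1% of starts) and a CpG ratio of 0.76, yet it had no peak. It belongs to the 483 CpG-rich protein-coding starts without a shared region, whose nearest region had a median distance of 19.8 kb, against 30.3 kb at *Neurog1*. *Neurod1*, with 53.7% GC and a CpG ratio of 0.68, was the other member of that class. At the opposite end, *Neurod4* had the highest signal of the 9 starts with the lowest CpG ratio, 0.20, and 47.0% GC. Of the 155 starts in its bin of composition (GC from 46%, ratio from 0.15), 15.5% had a region. *Neurod6* was close to it in composition, with a CpG ratio of 0.21 and 42.0% GC, and had no region.

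**Figure D3:**
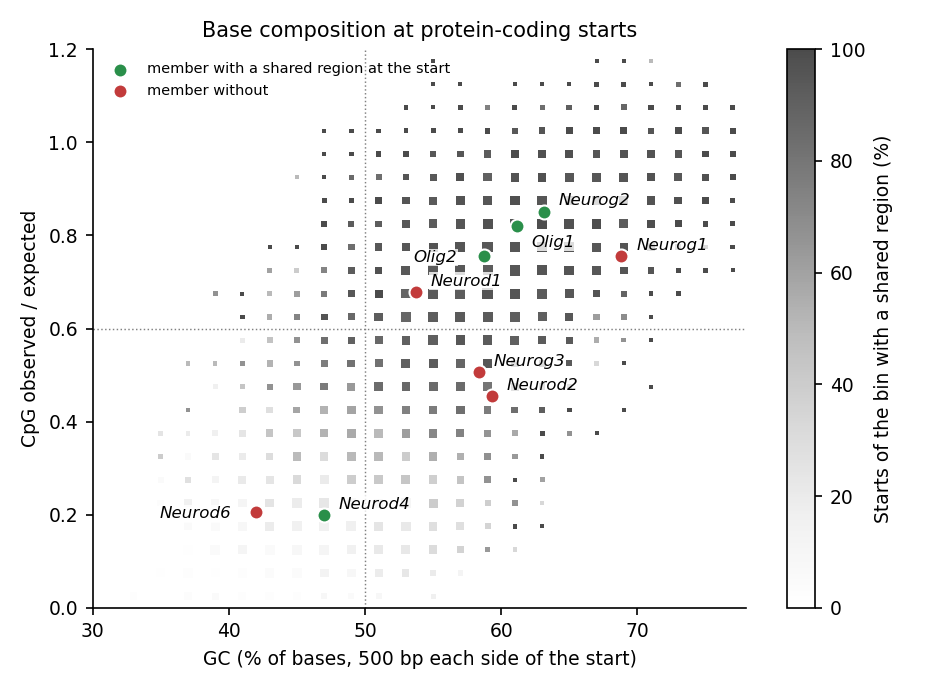
GC content (x axis, % of bases) against the observed to expected CpG ratio (y axis) in 500 bp on each side of protein-coding starts. Squares are bins of all starts, sized by their number and shaded by the percentage with a shared region, and dotted lines mark 50% GC and a ratio of 0.6. *Neurog1* and *Neurod1* (red, no region) lie among bins where most starts are accessible, and *Neurod4* (green) lies at a ratio of 0.20 among bins where few are.

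E-boxes in the 200 bases before the start also divided the members. All 5 members without a start region had at least 1 E-box there, from 1 at *Neurog1* and *Neurog3* to 3 at *Neurod2*, and none of the 4 members with a region (0) had any. Over all protein-coding genes the same stretch held an E-box in 65.4% of starts without a region and in 49.6% of starts with a region. Among CpG-rich starts the share with a region was 94.9% with an E-box and 95.1% without. The division depended on the length searched. With 100 bases, 2 of the 5 and 0 of the 4 had an E-box, beside 42.4% of all starts without a region and 27% of those with a region. With 500 bases all 9 members did, beside 87.9% of all starts. Of the 2 forms often bound by neural and myogenic factors, CAGCTG occurred before *Neurog3* only, against 9.91% of such stretches overall. The form CAGATG, searched on both strands, occurred before *Neurod2* only, against 10.4% overall. A match describes letters, not a bound site.

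Within 50 kb of the members, 34 distinct shared regions were found in 876 kb, or 3.88 per 100 kb. Taken gene by gene, the median was 2.94 per 100 kb of gene body and flanks over the members. The median over protein-coding genes was 5.46, and 6 of the 9 members lay below it. All 9 members had at least 1 region, as did 88.7% of protein-coding genes. *Neurog2* had the most, with 8 (7.81 per 100 kb, higher than 68.0% of genes), then *Neurod2* with 7 and *Neurod6* with 6. *Neurod4* had 4, *Olig1* 3, and *Neurog1*, *Neurog3*, *Neurod1* and *Olig2* had 2 each. The neighbourhoods of *Olig1* and *Olig2* overlap, and the start region of each is counted in that of the other.

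All 8 regions of *Neurog2* lay within 10 kb of the start, a count that 1.0% of protein-coding genes reached, against a median of 1. Of these, 5 were upstream and 2 downstream of the gene. The highest (chr3:127625286-127625746), 7.4 kb before the start, reached 12.5-fold enrichment in replicate 1 and 13.6 in replicate 2, and thus a higher mean than the region over the gene. The next one (chr3:127625996-127626453) had 9.24 in replicate 1, and in replicate 2 it belongs to the same peak as its neighbour. The pair at 5.0 and 4.4 kb also lay 70 bases apart under 1 peak of replicate 1, so the number of separate sites may be smaller than 8. The weakest region, 8.2 kb past the start, had 12 reads at the summit in each replicate.

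**Figure D4:**
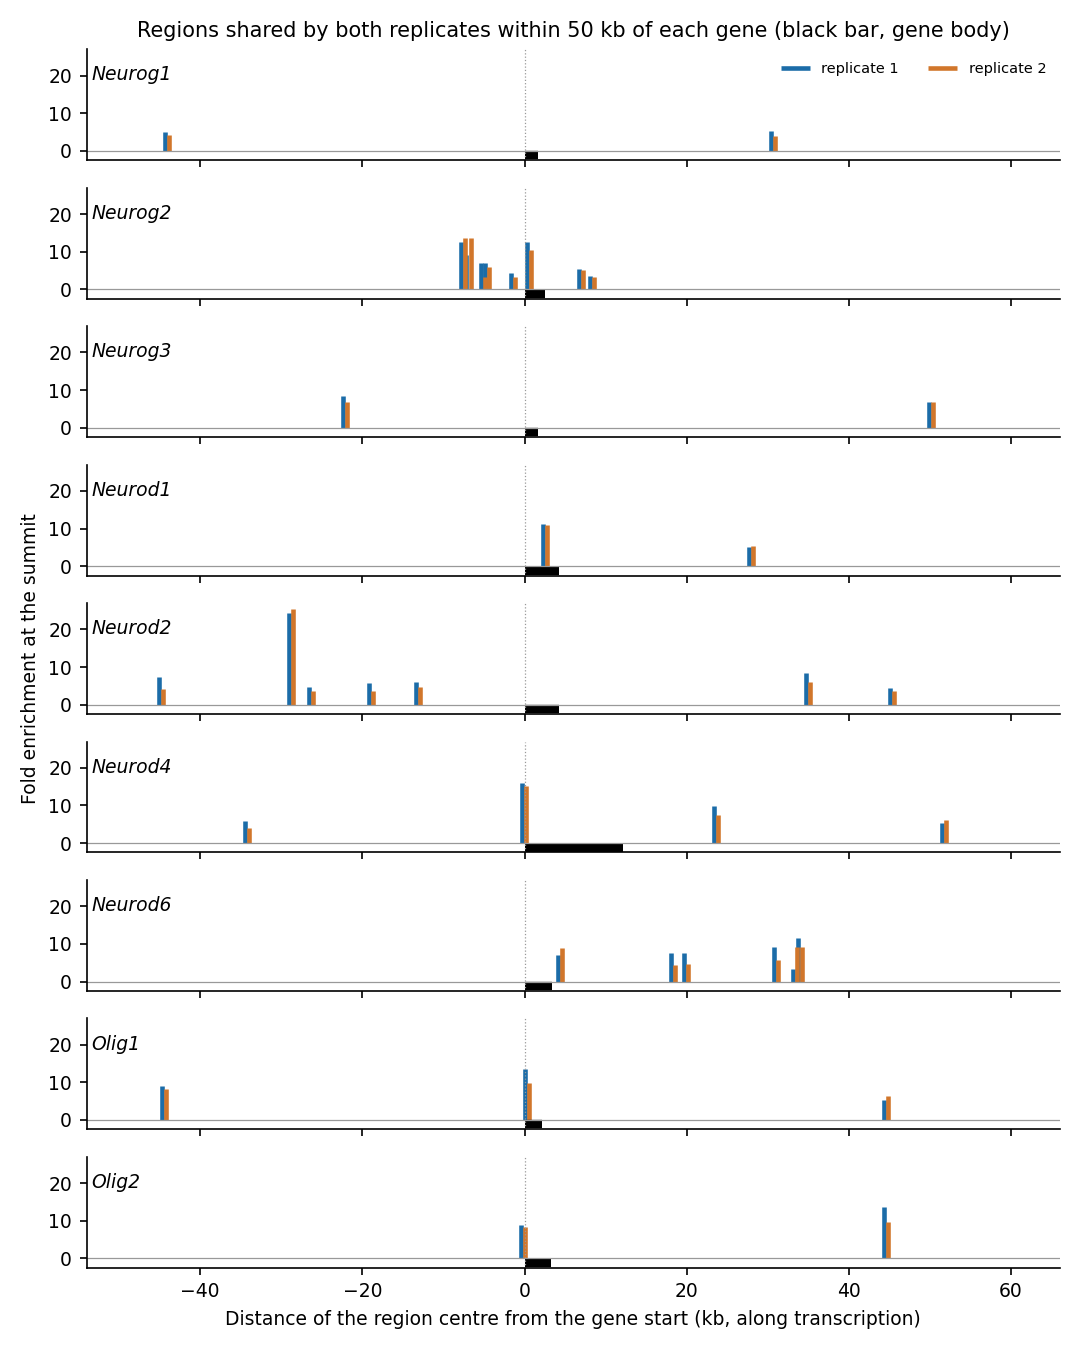
Shared regions around each gene, with distance of the region centre from the gene start along transcription on the x axis (kb) and fold enrichment on the y axis (linear, the same scale in each row), blue for replicate 1 and orange for replicate 2. The black bar is the gene body. *Neurog2* regions crowd within 10 kb of the start, those of *Neurod6* lie downstream, and the highest bar, near *Neurod2*, is the start of *Stard3* at 24.4 and 25.4.

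All 6 regions of *Neurod6* were downstream, from 3.9 to 33.7 kb past the start, and the highest (chr6:55647095-55647607) had 11.7 in replicate 1 and 9.05 in replicate 2. The next one to it belongs to the same peak of replicate 2. No annotated gene overlaps any of the 6. Around *Neurod2*, the highest region was the start of *Stard3*, which encodes a cholesterol-binding protein of late endosomes, with 24.4 and 25.4. It lay 28.2 kb from the start of *Neurod2* and had the highest fold enrichment of any region near a member. The start of *Ppp1r1b*, which encodes the signalling inhibitor DARPP-32, also held a region, at 5.70 and 3.52.

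Near *Neurog1*, the higher mean of its 2 regions was 4.59 (chr13:56221212-56221893, 5.16 and 4.02), and the other was the start region of the chemokine gene *Cxcl14*, 43.8 kb away, with 4.89 and 4.27. The higher one near *Neurog3* lay in an exon of *Fam241b* (chr10:62110784-62111218), with 8.42 and 6.79. Beyond its start, *Neurod4* had its highest region 23.3 kb past it (chr10:130256234-130256988), with 9.78 and 7.54. The remaining region near *Olig1* lay 44.4 kb past the start in an intron of the non-coding gene *Gm15966*, with 5.43 and 6.28. The second region near *Neurod1* overlapped an exon of *Cerkl* 27.7 kb past the start, with 5.16 and 5.28.

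By annotation, 4 of the 34 regions were at member starts, 3 at starts of other protein-coding genes, 3 on exons, 3 in introns and 21 between genes. Mean fold enrichment had a median of 6.17 over the 34 and of 5.90 over the 30 outside member starts, against 6.29 over all 98924 shared regions. In 300 bp centred on the higher of the 2 summits, 25 of the 34 held an E-box, 9 held CAGCTG and 7 held CAGATG, beside 78.6%, 24.4% and 22.1% of all shared regions.

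Related genes were read at the same window around the start. Of 9 other neural bHLH genes, 5 had a shared region, from 6.42 at *Ptf1a*, a factor of pancreas and inhibitory neurons, to 20.8 at *Bhlhe22*, and *Olig3*, *Bhlhe23*, *Nhlh1* and *Nhlh2* had none. All 9 bHLH genes of heart and mesenchyme had a region, from 5.11 at *Mesp1*, a factor of early cardiac mesoderm, to 48.4 at *Hey2*, a Notch target of the ventricle. Their median over accessible starts was 9.58, against 11.6 for the 4 accessible members. Of the 4 skeletal myogenic bHLH genes, *Myod1* (5.21) and *Myf6* (10.9) had a region and *Myf5* and *Myog* had none. A peak of 1 replicate alone lay at the start of *Olig3* (replicate 1) and of *Myf5* (replicate 2). The shared region nearest to *Myf5* was 1013 bp from its start. The members, the other neural list and the heart list each held 5 CpG-rich starts of 9, and the skeletal list held 0 of 4.

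All 3 E proteins, the broadly expressed partners of neural bHLH factors, had a region, from 18.6 at *Tcf12* to 30.3 at *Tcf4*. Of 8 genes listed as inhibitors, which encode Id proteins that sequester those partners and members of the Hes family, 7 had a region, and *Hes3* had none. They ran from 5.12 at *Hes5*, a repressor downstream of Notch, to 35.9 at *Hes6*, which is known to antagonise Hes1 and to promote neuronal differentiation. Of 12 genes that are active downstream in neurons, 7 had a region, from 7.197 at *Dll3* to 29.4 at *Elavl4*. The 5 without were *Elavl3*, *Dcx*, *Stmn2*, *Neurod1* and *Nhlh1*.

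**Figure D5:**
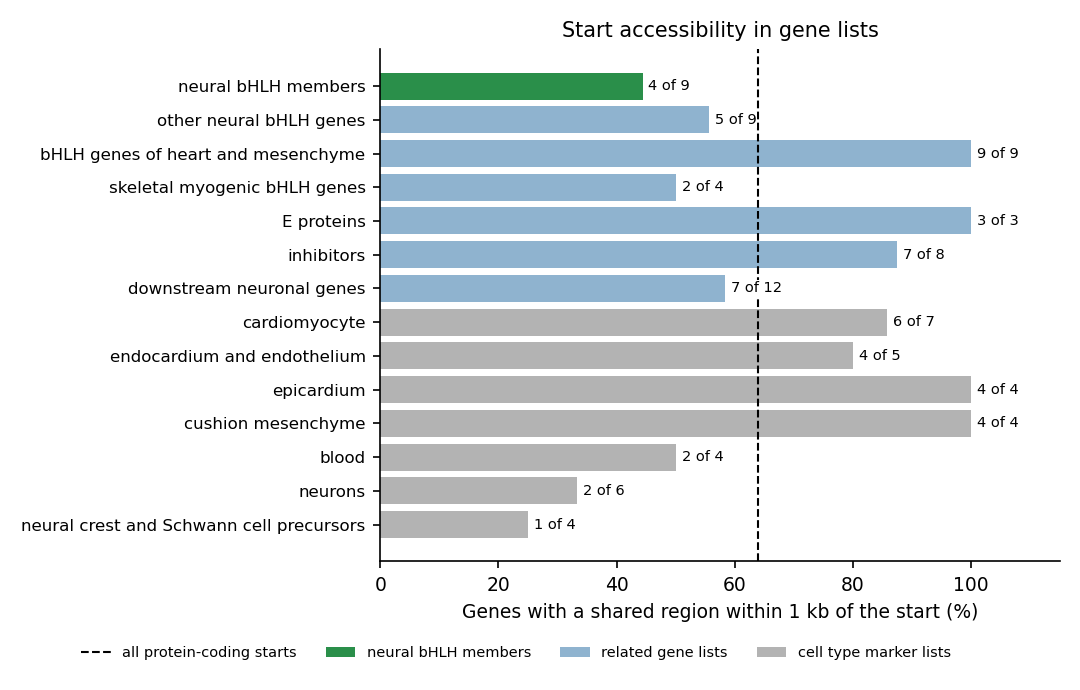
Percentage of genes in each list with a shared region within 1 kb of the start (x axis), with the counts beside the bars and the dashed line at 64.0% for all protein-coding starts. The members stand at 4 of 9, the other neural list at 5 of 9 and the heart and mesenchyme list at 9 of 9.

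The starts of marker genes were read as a check of the tissue label, beside 64.0% of all protein-coding starts with a shared region. With a share that high, lists this short cannot settle the label. A shared region was present at 6 of 7 cardiomyocyte genes (all but *Nkx2-5*, whose outermost annotated start lay 2657 bp from the nearest region), 4 of 5 endocardial and endothelial genes (all but *Pecam1*), 4 of 4 epicardial and 4 of 4 cushion mesenchyme genes, and 2 of 4 blood genes. Of 6 neuronal markers, 2 had a region (*Tubb3* with 10.3 and *Elavl4* with 29.4), and *Elavl3*, *Stmn2* and *Dcx* were among those without. Of 4 neural crest and Schwann cell precursor markers, only *Erbb3* had a region (17.1), and *Sox10* and *Foxd3* were among those without. A peak of 1 replicate alone lay at *Elavl3* and *Stmn2* (replicate 1) and at *Foxd3* (replicate 2). For these genes the nearest shared region lay outside the window but near it, 1078 bp (*Elavl3*), 1578 bp (*Stmn2*) and 1003 bp (*Foxd3*) from the start. It was 35492 bp away at *Dcx* and 23492 bp away at *Sox10*. Whether neural cells in the dissected hearts contribute to the regions at the members was not tested.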

How the data were processed

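ATAC-seq peak lists of the 2 replicates were used as deposited. Per the labels and the paper's methods, the authors trimmed single-end reads (Trim Galore 0.6.6), mapped them to GRCm38/mm10 (Bowtie2 2.4.2), removed duplicates and poorly mapped reads (SAMtools 1.12), and called peaks in each replicate with MACS2 without a local background, after shifting and extending reads, which sets how far a summit can lie from the insertion. The paper gives a p-value limit, and the largest q-values in the lists were 0.0194 and 0.0425. The deposited fold enrichment is a ratio at the summit. The authors' −log10 values of p and q refer to that summit too, and their deposited score is the q-based value scaled up by 10 (not used). Read totals are not part of the lists, which hold 118027 and 114783 peaks. The background was solved from the spacing between neighbouring fold enrichments, and 100% of summit pileups came out whole within 0.05 reads.

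Overlapping peaks of both replicates (at least 1 bp) were intersected and merged where they touch. A gene's start was its outermost start in GENCODE M21, and sequence came from the GRCm38.p6 reference of C57BL/6J. Members and lists were chosen with earlier results of these data known. Genes named are the members, neighbours whose start holds a region, the highest region of each neighbourhood, and the highest, lowest and (up to 5) inaccessible genes of each list. The genes named in the tissue check, beyond the extremes, and the count within 10 kb and the E-box lengths of 100 and 500 bases were chosen after values were seen. Some marker genes are counted in their lists and not reported here by name. With 2 samples of 1 group, genes of like pattern were not sought. Overlap code was tested on simulated peaks. Alternatives were p, q and overlap limits, each replicate alone, other windows, starts and flanks, and summits inside the window. Scripts ran in Python 3.11.15 with Numba 0.67.0, pandas 2.3.3, NumPy 2.4.6 and Matplotlib 3.10.9.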

Additional observations from a re-analysis of the deposited data

How the results depend on the processing

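No paired analysis was possible because there was no second group to pair with. The 4 members with a start region were the same genes with p-values of at most 0.00001, q-values of at most 1e-10, a reciprocal overlap of at least 50%, replicate 2 alone, windows of 500 bp or 2 kb, and every annotated transcript start. Replicate 1 alone added *Neurod1*, which gave 5, and summits inside the window removed *Neurog2*, which left 3. Between 6 and 8 members lay below the median density.

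The share of all protein-coding starts with a region was 63.7% at the p-value limit, 59.1% at the q-value limit, 62.6% with reciprocal overlap, 62.3% and 66.3% with windows of 500 bp and 2 kb, 68.1% with every transcript start, 61.2% with summits inside the window, and from 65.2% to 65.3% with each replicate alone. Regions near the members numbered 16 at the q-value limit, as fewer peaks enter, and 20 and 75 with flanks of 25 kb and 100 kb. The share of these at starts of other protein-coding genes, 8.82%, became 10% at the p-value limit, 6.25% at the q-value limit, 11.54% with reciprocal overlap, 8.11% with each replicate alone, 17.6% with every transcript start, and 5.0% and 10.7% with flanks of 25 kb and 100 kb. For the other shifts the cause was not tested. With 2 replicates, the order of *Olig1* and *Neurog2* cannot be resolved, and peaks near 9 reads are at the limit for a call.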

Other observations

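Near the members, 9 peaks belonged to a single replicate, 4 in replicate 1 and 5 in replicate 2, with a fold enrichment from 3.26 to 5.70. The highest was upstream of *Neurod1* in replicate 1 (chr2:79499328-79499547), with 20 reads at the summit. The one closest to an accessible member start lay upstream of *Olig2* in replicate 1 (chr16:91222675-91222886), with a fold enrichment of 4.07 and 14 reads. Over all protein-coding genes, 2.2% of starts had a peak in 1 replicate only, and *Neurod1* was the sole member among them.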
